A study of Ovis aries with 20 samples.

Results

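The pancreas of sheep fetuses that lack CFTR was compared between the youngest and the oldest ages of the bulk libraries, 65 days of gestation and term, across every gene of the count table. The comparison rests on 4 of the 20 bulk RNA-seq libraries, 2 animals at each age, chosen by their genotype and age labels, and on all 24478 genes listed for them. The 6 CFTR-/- libraries of 80, 100 and 120 days were used to see whether a change was gradual or late, and the 4 WT libraries of 65 days and term to see whether the difference between the ages differed with genotype. All 10 CFTR-/- animals, labelled CF, were clones made with somatic cell nuclear transfer, where an egg develops under the nucleus of a body cell. Their donor cells were 1 male American Romney fetal fibroblast line (CF 60) in which exon 2 of CFTR was targeted, so that the CFTR-/- animals share a clonal origin, whereas the WT animals were bred and those of term born naturally. Loss of CFTR and cloning therefore cannot be told apart in any difference between CFTR-/- and WT. Term is day 147 in the labels. The 65-day CFTR-/- animals carry labels of a common stem, the term animals labels of different stems, and no label gives a sequencing batch, so that a difference in litter or handling cannot be told apart from a difference in age. The study reports slightly lower RNA integrity in term CFTR-/- pancreas than in WT, though still within its limits for sequencing. The part of RNA integrity in the results was not tested. Each library was made from RNA of snap-frozen pancreas tissue, so that a lower value can come from fewer cells of a type or from less RNA per cell, and these cannot be told apart.

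In the second part of gestation the pancreas turns from a branching epithelium, surrounded by abundant mesenchyme and full of dividing cells, into a gland made up mostly of acinar cells that store and secrete digestive enzymes. Duct cells line the tree that carries the enzymes to the gut, islet cells secrete hormones into the blood, and stellate cells and fibroblasts lay down the matrix between the lobules. CFTR is an anion channel of the duct epithelium that drives the secretion of fluid and bicarbonate, and without it enzymes are retained and the exocrine gland is injured and replaced by fibrous tissue before birth. The comparison of term with 65 days asks which of these developmental changes the CFTR-/- pancreas had gone through.

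The labelled tissue was present in every library by its defining markers. The summed CPM (counts scaled to a common library size, with TMM factors that set the scale by the bulk of the genes) of 24 digestive enzymes and other acinar products was at least 4700 in each CFTR-/- library. The 65-day libraries held 59478191 and 60514559 counts and those of term 59755480 and 23171353, so that 1 count was worth 0.0124, 0.0101, 0.0323 and 0.0805 CPM. Term animal 2 was thus the shallowest of the 20 libraries. A single unnamed gene, LOC101117443, took 4.75% and 2.33% of the counts at 65 days and 33.2% and 30.8% at term, and the 10 largest genes took 11.3% and 8.84% against 49.7% and 41.6%. TMM factors were 1.36 and 1.64 at 65 days against 0.519 and 0.536 at term, and the median log2 fold change of all tested genes was -0.18. With library totals and no TMM factors that median was -1.71, so each fold change here is relative to the bulk of the genes and not to the whole of the RNA. The log2 CPM of the 2 animals correlated across genes with r = 0.958 at 65 days and r = 0.897 at term, where genes are not independent replicates. One library stood apart: animal 2 at 100 days, with 35973948 counts, had 4700 summed CPM of the acinar list against 60900 in the other animal, and 407 against 24.5 summed CPM of lymphoid markers and 552 against 17.8 of adipocyte markers. Its animal label is also that of WT animal 1 at 65 days, which was not resolved. It is in neither group of the comparison of term with 65 days, but bears on it through the shared estimate of spread, the filter on low counts and the normalization.

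Between 65 days and term most digestive enzyme genes of the CFTR-/- pancreas rose and most genes of extracellular matrix and mitosis fell at an adjusted p of 0.05, and some genes of DNA replication, nerve and fetal growth fell. A gene was called changed if edgeR's quasi-likelihood test gave it an adjusted p (Benjamini-Hochberg) no higher than 0.01 and its log2 fold change was 0.58 or more in size. By this rule 183 of 18737 tested genes were called, or 0.977% of them, of which 65 (0.347%) rose and 118 (0.63%) fell. The median log2 fold change was 2.48 among those that rose and -2.80 among those that fell. At an adjusted p of 0.05 the count was 2185 (11.7%), with 976 higher (5.21%) and 1209 lower (6.45%). The values of the 2 ages did not overlap in any of the 183 genes, and did not overlap in 63.5% of all tested genes (24.7% higher, 38.8% lower). Of the 183 genes, 26 have only a locus number. The count depended on single animals. With 1 animal of an age left out, the lone animal being assumed to vary like the others, it was 2 without 65-day animal 1, 2 without 65-day animal 2, 85 without term animal 1, of which 31 are among the 183, and 0 without term animal 2, where 0 stands against 5521 genes with an unadjusted p under 0.05 in the full set and 2698 genes called by DESeq2's Wald test. Without the library that stood apart at 100 days 19503 genes were tested and 1524 called, all 183 genes among them, and in a fit with the replicate number as a block the count was 357. With library totals in place of TMM factors 7023 genes were called, 0.783% of them higher, against 35.5% of the 183. No gene among the 62 called genes checked for it changed direction in any of these fits. Called genes that only the closing section adds were not among the 62.

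**Figure D1:**
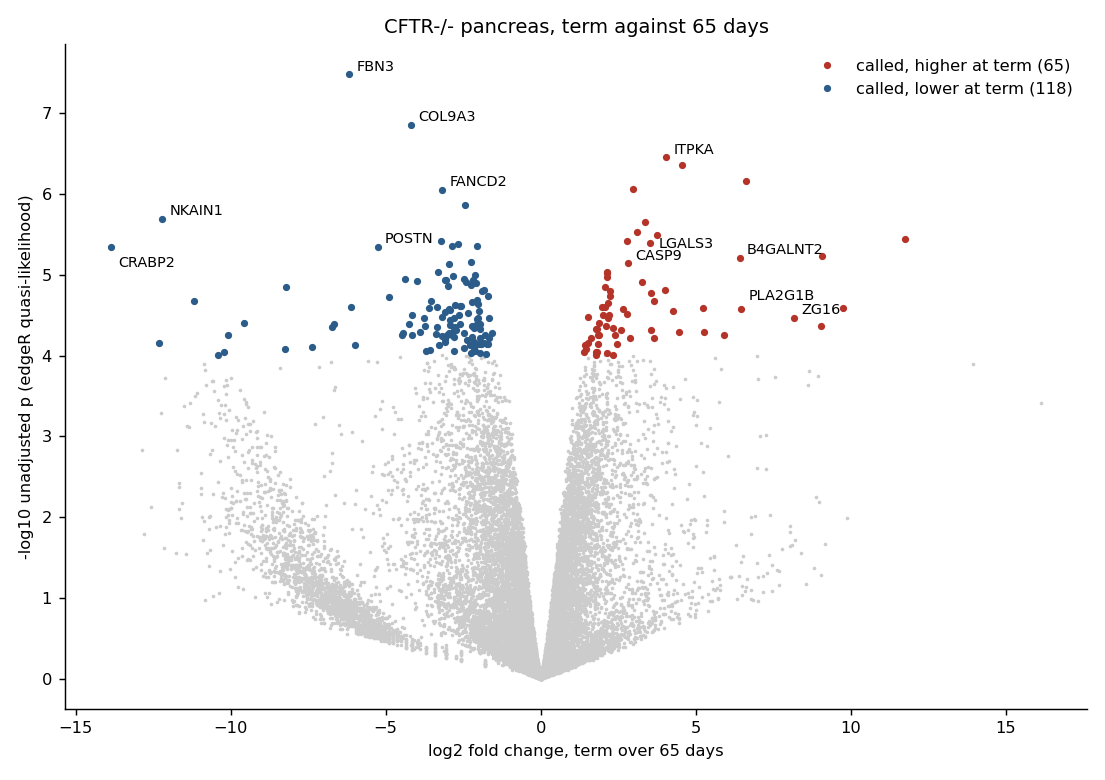
Each point is 1 of the 18737 genes tested in CFTR-/- pancreas, placed by its log2 fold change of term over 65 days and the negative log10 of its unadjusted p in edgeR's quasi-likelihood test, with called genes in colour. The 118 genes lower at term outnumber the 65 that are higher, FBN3 stands farthest to the top, and the group of points at the far left holds genes with 0 counts at term, such as CRABP2 and NKAIN1.

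The acinar products had the highest median fold change of the lists examined. Of 37 genes on this list 24 were found in the table under the names used, and all 24 were tested, of which 21 rose and 0 fell at an adjusted p of 0.05, and 23 were called higher at 0.01 without the library that stood apart. The median of the list was 4.52 on the log2 scale, or 4.70 above that of all genes, and its summed CPM went from 14400 and 10900 at 65 days to 377000 and 224000 at term. PLA2G1B encodes the pancreatic phospholipase A2 and lies on chromosome 17 from 62285375 to 62295664 (Oar_v4.0). It was at 160.1 and 125 CPM at 65 days and at 15460 and 9529 CPM at term. Both term animals were far above both 65-day animals (log2 fold change 6.46, SE 0.86, edgeR adjusted p 0.00684). ZG16, a lectin of the zymogen granule (chromosome 24, 26464827 to 26470571), went from 4.07 and 3.71 CPM to 1765 and 476 CPM. The 2 term animals differed from each other more than the 2 young ones did, but no value of one age reached the other (log2 fold change 8.18, SE 1.13, edgeR adjusted p 0.00711). SPINK1, the trypsin inhibitor that acinar cells store beside their enzymes (chromosome 5, 56437361 to 56444215), was at 76.2 and 58.3 CPM and then at 1550 and 1042 CPM. It rose less than the enzymes of the list at their median, by a log2 fold change of 4.28 (SE 0.58, edgeR adjusted p 0.00688).

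The best known enzymes rose at the wider threshold of 0.05. PRSS2, a trypsinogen, went from 293 and 159.7 to 35670 and 21290 CPM (log2 fold change 6.99, edgeR adjusted p 0.0101). CTRC, chymotrypsin C, went from 79.9 and 97.3 to 21240 and 11980 CPM (log2 fold change 7.57, edgeR adjusted p 0.0120). PNLIP, the pancreatic lipase, went from 0.148 and 0.171 to 67.4 and 60.5 CPM (log2 fold change 8.64, edgeR adjusted p 0.0124). In each of these the term values lay far outside those of 65 days. CPA1, carboxypeptidase A1, was already at 4368 and 3379 CPM at 65 days and reached 101400 and 51780 CPM (log2 fold change 4.32, edgeR adjusted p 0.0429). The 3 members that did not pass were PNLIPRP2 (log2 fold change 3.69, edgeR adjusted p 0.0517), GP2 (log2 fold change 2.40, adjusted p 0.134) and CTRL (log2 fold change -1.76, adjusted p 0.352). Trypsinogens, elastases and chymotrypsinogens form families of similar genes, and counting could have divided reads between copies, so their single values are uncertain. The unnamed gene LOC101117443 was at 34980 and 14190 CPM at 65 days and 640000 and 574000 at term, and did not pass (log2 fold change 4.64, SE 1.57, edgeR adjusted p 0.0844).

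**Figure D2:**
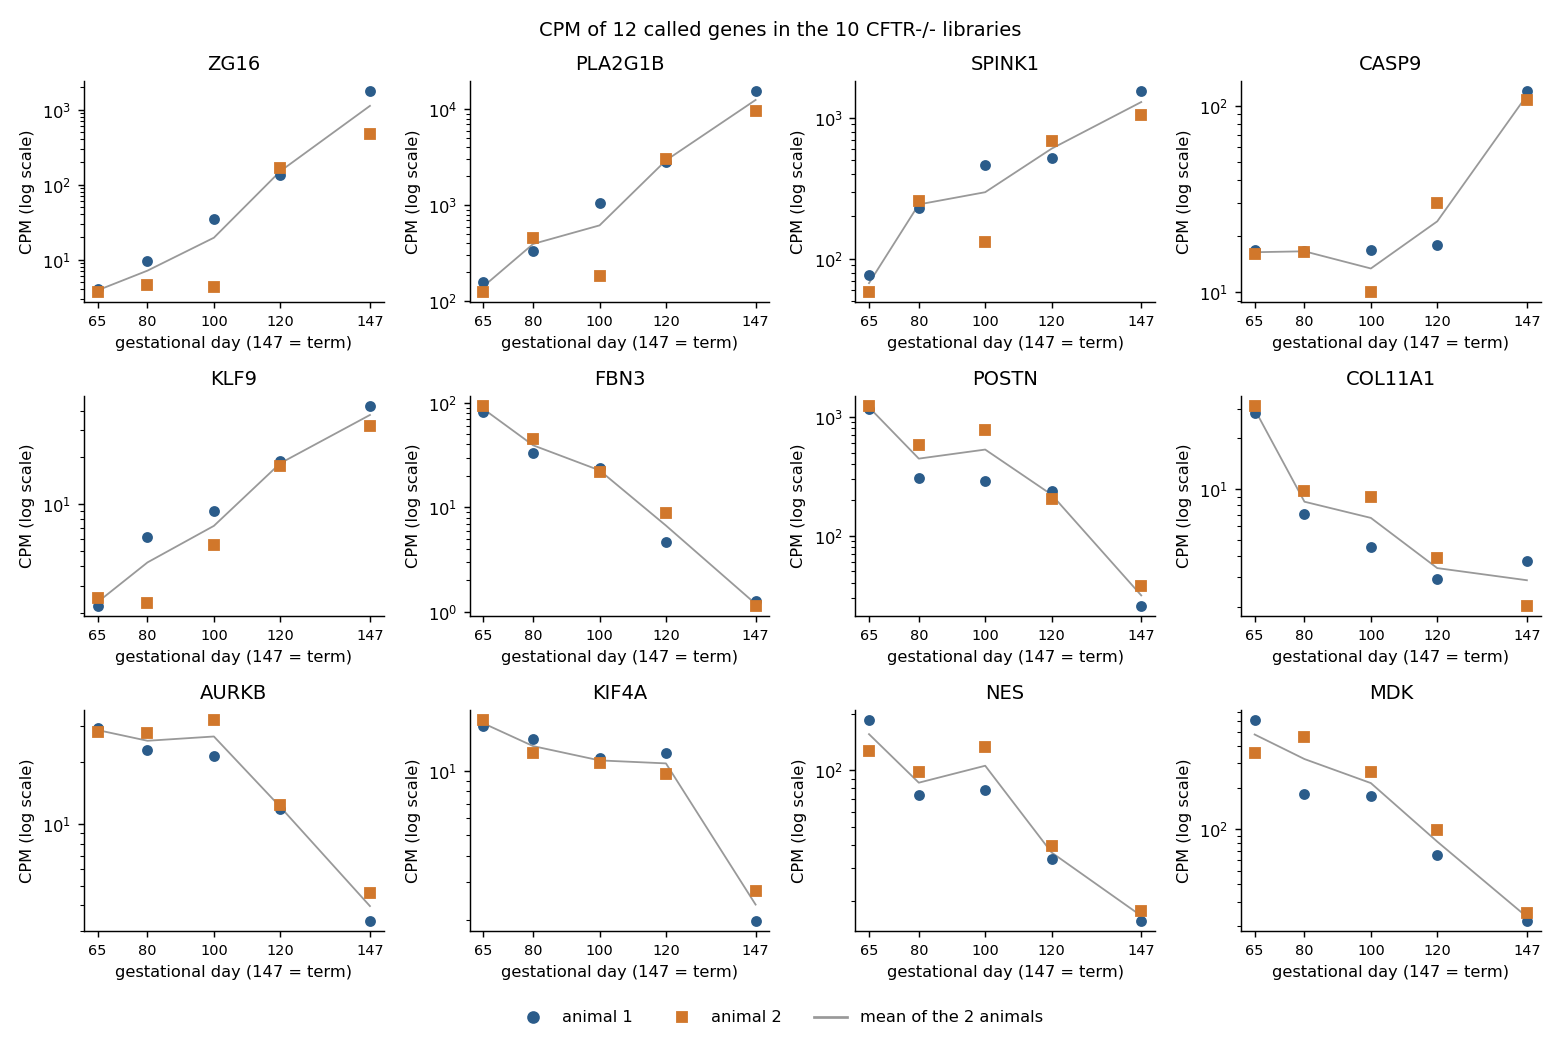
CPM on a log scale against gestational day for 12 called genes in the 10 CFTR-/- libraries, with a circle for animal 1, a square for animal 2 and a line through their means. The means of ZG16, PLA2G1B, SPINK1 and KLF9 climb at every age and those of FBN3, COL11A1 and MDK descend, POSTN, AURKB and NES end low with a mean at 100 days above that of 80 days, CASP9 lies between 10.02 and 30.1 CPM up to 120 days and at 107 and 119.9 CPM at term, and KIF4A drops mainly after 120 days.

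Some genes that equip the secretory cell rose too. The unfolded protein response, by which the endoplasmic reticulum adjusts to its protein load, was represented by 34 tested genes. Of these 14 rose and 0 fell at an adjusted p of 0.05, and 0 passed 0.01. Their median was 1.24, or 1.42 above all genes, but -0.289 with library totals, where the median of all genes was -1.71. EDEM1, which removes misfolded glycoproteins, went from 22.7 and 26.8 to 115 and 88.4 CPM (log2 fold change 2.06, edgeR adjusted p 0.0122), with both term animals above both 65-day animals. The co-chaperones DNAJC3 (log2 fold change 1.97, edgeR adjusted p 0.0171) and DNAJB9 (log2 fold change 2.23, adjusted p 0.0171) and the transcription factor XBP1 (log2 fold change 1.93, adjusted p 0.0456) were also higher. Ribosomal protein genes were counted for 82 members, of which 12 rose and 0 fell at 0.05 and 0 passed 0.01. In 80 of the 82 both term animals exceeded both 65-day animals, against 24.7% of all tested genes. Their median was 1.37, 1.55 above all genes, but -0.104 with library totals, and their summed CPM was 122000 and 69000 at 65 days and 206000 and 312000 at term. RPLP1, a protein of the ribosomal stalk, went from 3067 and 1672 to 10120 and 13420 CPM (log2 fold change 2.33, edgeR adjusted p 0.0285).

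Transcription factors of the acinar and progenitor epithelium did not follow the enzymes. Of 16 tested, 0 rose and 1 fell at an adjusted p of 0.05, the progenitor factor SOX11 (log2 fold change -5.12, edgeR adjusted p 0.0203), and their summed CPM was 481 and 471 at 65 days and 552 and 574 at term. Steroid responsive genes were partly higher. In a list of 17 glucocorticoid-responsive genes, 4 rose and 1 fell at 0.05, and KLF9 was called at 0.01. KLF9, a transcription factor that glucocorticoid and thyroid hormone induce, went from 2.203 and 2.50 CPM to 43.02 and 31.9 CPM. Both term values lay far above both 65-day values, with a log2 fold change of 4.01 (SE 0.50, edgeR adjusted p 0.00609). HSD11B1, which regenerates active cortisol inside cells (log2 fold change 3.98, edgeR adjusted p 0.0125), KLF15 (log2 fold change 2.35, adjusted p 0.0181) and the glucocorticoid receptor co-chaperone FKBP5 (log2 fold change 1.39, adjusted p 0.0207) rose, and the glutamine synthetase gene GLUL fell (log2 fold change -1.23, adjusted p 0.0379). The median of the list was 0.758, 0.939 above all genes, and -0.740 with library totals.

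Islet genes changed less evenly. Of 23 hormone and granule genes, 5 rose and 0 fell at an adjusted p of 0.05, and 0 passed 0.01. The median was 1.01, 1.19 above all genes, but -0.470 with library totals. CHGA, a structural protein of the hormone granule, went from 168 and 222 to 666 and 1032 CPM (log2 fold change 2.14, edgeR adjusted p 0.0120). PPY, pancreatic polypeptide, went from 46.95 and 35.6 to 408 and 468 CPM (log2 fold change 3.42, edgeR adjusted p 0.0360). In both genes the ages did not overlap. SST, the somatostatin gene of delta cells, was at 199 and 318 and 1560 and 1253 CPM and missed the threshold (log2 fold change 2.46, edgeR adjusted p 0.0729). GCG, the glucagon gene of alpha cells, overlapped between the ages, at 1256 and 2164 against 2601 and 1323 CPM (log2 fold change 0.21, edgeR adjusted p 0.886). Among 19 islet transcription factors, 0 rose and 1 fell at an adjusted p of 0.05. It was NEUROG3, the factor that commits progenitors to the endocrine fate, at 7.02 and 11.8 CPM at 65 days and 0 counts in both term libraries (edgeR adjusted p 0.0120).

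In the duct and mucus lists few genes passed. Of 22 duct genes 1 rose and 2 fell at an adjusted p of 0.05. The riser was PIGR, the receptor that carries antibodies across epithelia (log2 fold change 5.04, edgeR adjusted p 0.0148), and SPP1, osteopontin (log2 fold change -3.82, adjusted p 0.0235), and CFTR itself were lower. CFTR lies on chromosome 4 from 50644000 to 50864925. It was counted at 44.5 and 45.8 CPM at 65 days, 30.6 and 43.9 at 80, 19.8 and 24.6 at 100, 12.2 and 27.6 at 120 and 16.9 and 11.6 at term. Reads of the gene were thus still counted in the animals labelled CF, and since the change made in exon 2 need not remove the transcript, a count over the whole gene is no check of the knockout. Its log2 fold change was -1.64 (SE 0.39, edgeR adjusted p 0.0280), in WT animals -0.86 (adjusted p 0.109), and the difference between the genotypes did not pass (adjusted p 0.359). Of 15 mucins and mucus proteins 4 rose and 0 fell at 0.05. MUC1, a mucin anchored in the apical membrane, went from 28.3 and 23.5 to 274 and 246 CPM (log2 fold change 3.34, edgeR adjusted p 0.0283). The trefoil peptide TFF2, secreted along with mucus, went from 186 and 109 to 3780 and 2060 CPM (log2 fold change 4.32, edgeR adjusted p 0.0351). Both ranges were apart, and TFF1 (log2 fold change 3.76, adjusted p 0.0366) and AGR2 (log2 fold change 3.14, adjusted p 0.0460) rose as well.

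**Figure D3:**
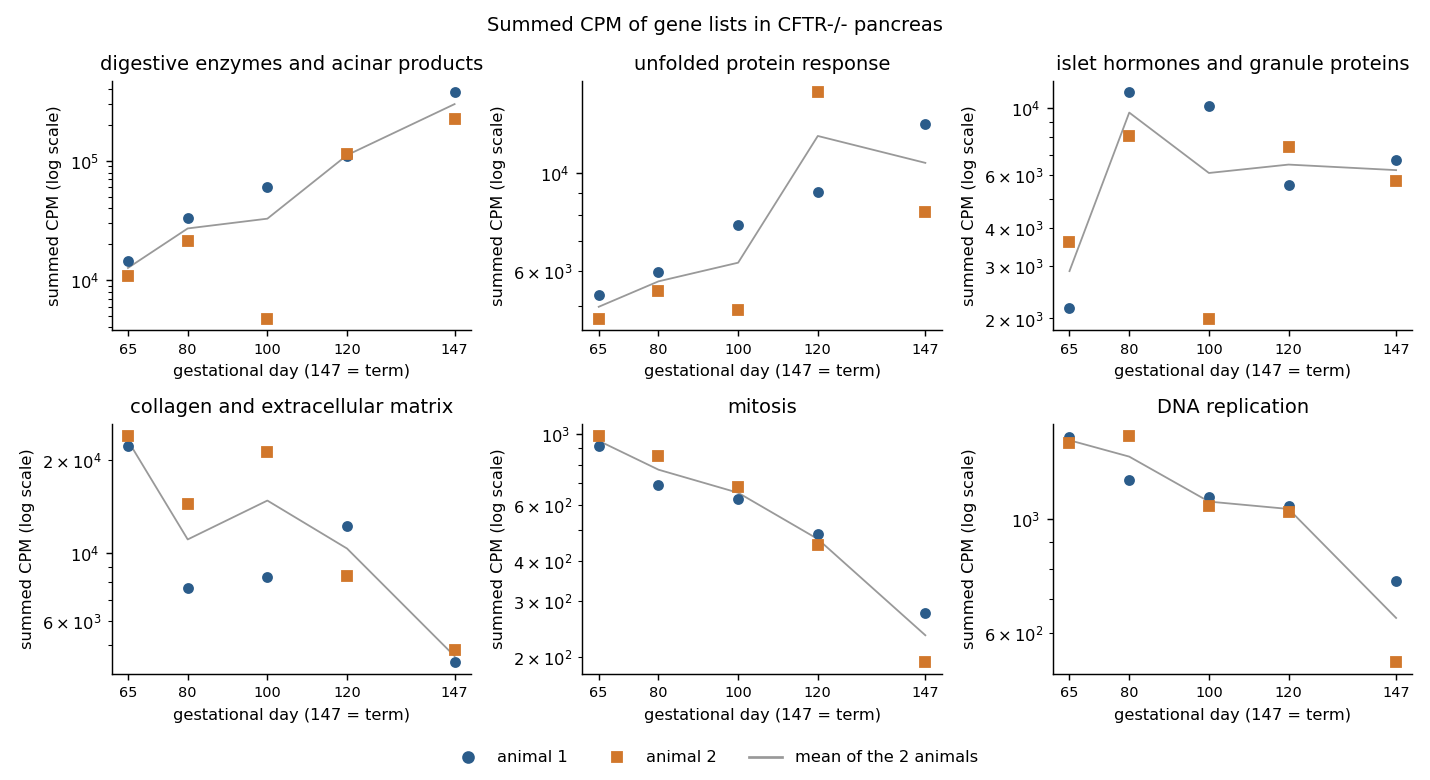
Summed CPM on a log scale against gestational day for 6 gene lists in the 10 CFTR-/- libraries, with a circle for animal 1, a square for animal 2 and a line through their means. Digestive enzymes and acinar products climb from 14400 and 10900 to 377000 and 224000 with the exception of 100-day animal 2 at 4700, the means of mitosis and DNA replication genes descend, matrix genes end lowest at term but were at 8320 and 21200 at 100 days against 7670 and 14400 at 80 days, and islet genes have their highest mean at 80 days.

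Most matrix genes fell at the wider threshold. Of 44 collagens and other matrix genes tested, 9 were called lower at 0.01 and 30 at 0.05, 0 were higher at either threshold, and 27 were called lower at 0.01 without the library that stood apart. All 44 fitted fold changes were below 0 with TMM scaling, with a median of -2.09, or -1.91 against all genes, and the summed CPM went from 22200 and 24000 to 4400 and 4820. The lowest p of the whole comparison belonged to FBN3, a fibrillin of fetal tissues (chromosome 5, 14397671 to 14467101). Its CPM was 81.05 and 94.05 at 65 days, 33.2 and 45.3 at 80, 23.7 and 21.6 at 100, 4.65 and 8.76 at 120 and 1.26 and 1.13 at term. No value of a later age reached one of an earlier age (log2 fold change of term over 65 days -6.17, SE 0.39, edgeR adjusted p 0.000615). POSTN, periostin, a matrix protein of fibroblasts (chromosome 10, 24453914 to 24488210), went from 1163 and 1241 CPM to 25.3 and 37.4 CPM (log2 fold change -5.25, SE 0.57, edgeR adjusted p 0.00404). Its 2 animals of 100 days were at 290.3 and 769 CPM and lay on either side of the 80-day values. VCAN, versican, a large proteoglycan of loose embryonic matrix, went from 127 and 126 to 4.29 and 4.11 CPM (log2 fold change -4.89, edgeR adjusted p 0.00657). COL9A3, a collagen IX chain (chromosome 13, 53768021 to 53793841) named by its p and not by the list, went from 116 and 98.8 to 6.81 and 4.91 CPM (log2 fold change -4.17, edgeR adjusted p 0.00130). The ranges of the ages were far apart in each of these genes.

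The other called matrix genes were FBN2, MATN2, COL11A1, COL12A1, MMP14 and THBS1, with log2 fold changes from -4.16 for FBN2 to -2.61 for COL12A1. MMP14, the membrane protease that activates other matrix proteases, went from 34.5 and 44.2 to 4.65 and 4.51 CPM (edgeR adjusted p 0.00804). The fibrillar collagens that make up scar tissue missed 0.01 and passed 0.05. COL1A1 was at 2777 and 3572 CPM at 65 days and 470.1 and 264 at term (log2 fold change -3.10, edgeR adjusted p 0.0121), and COL3A1 at 5700 and 6271 and 972 and 960.5 (log2 fold change -2.62, edgeR adjusted p 0.0238). Both were lower in both term animals than in either 65-day animal. Among 21 genes of stellate cells and myofibroblasts, the cells that produce this matrix, 2 were called lower at 0.01 and 6 at 0.05, and 0 higher. NES, nestin, an intermediate filament of immature and stellate cells, went from 184 and 127 to 15.7 and 17.8 CPM (log2 fold change -3.20, SE 0.34, edgeR adjusted p 0.00404). NOTCH3, a receptor of mural cells, was the other called gene (log2 fold change -2.23, edgeR adjusted p 0.00966), and TGFB2, MYL9, PDGFRB and PDGFRA passed 0.05. The summed CPM of the stellate list was 3750 and 2920 at 65 days against 1160 and 1910 at term.

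Most mitosis genes fell as well at the wider threshold. Of 38 mitosis genes 13 were called lower at 0.01 and 29 at 0.05, 0 were higher, and 21 were called without the library that stood apart. All 38 were below 0, with a median of -1.96, or -1.78 against all genes, and the summed CPM went from 913 and 986 to 276 and 193. AURKB encodes the kinase of the chromosomal passenger complex (chromosome 11, 27355880 to 27360145). It was at 29.4 and 28.1 CPM at 65 days and 3.36 and 4.59 at term, with the term animals lowest of all 10 libraries (log2 fold change -2.85, SE 0.31, edgeR adjusted p 0.00404). TOP2A, the topoisomerase of dividing cells, went from 93.5 and 107 to 18.9 and 6.60 CPM (log2 fold change -2.94, edgeR adjusted p 0.00774), and CCNB1, the cyclin of entry into mitosis, from 30.7 and 28.9 to 5.71 and 2.25 CPM (log2 fold change -2.86, edgeR adjusted p 0.00774). The other called mitosis genes, KIF4A, KIF20A, KIF11, CENPF, ASPM, BIRC5, TPX2, MYBL2, UBE2C and PRC1, had log2 fold changes from -3.27 (KIF20A) to -1.68 (PRC1).

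A minority of DNA replication genes passed the test. Of 45 tested, 3 were called lower at 0.01 and 17 at 0.05, and 0 were higher. The fitted fold change was below 0 in 41 and above it in 4, with a median of -1.50. FANCD2, which coordinates the repair of stalled replication forks (chromosome 19, 16672218 to 16721852), was at 22.4 and 22.2 CPM at 65 days and 2.39 and 2.495 at term. The animals of each age were close to each other and the ages far apart (log2 fold change -3.18, SE 0.29, edgeR adjusted p 0.00238). The thymidylate synthase gene TYMS (log2 fold change -2.02, adjusted p 0.00684) and the chromatin assembly factor gene CHAF1A (log2 fold change -1.75, adjusted p 0.00984) were the other called members. Among 15 inhibitors of the cell cycle 1 rose at 0.05 and 0 fell, the antiproliferative gene BTG2 (log2 fold change 1.96, edgeR adjusted p 0.0254).

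Several genes that serve the embryo were lower at term. Of 22 fetal growth and oncofetal genes 2 were called lower at 0.01 and 6 at 0.05, 0 rose, and 3 had a fitted fold change above 0. MDK, midkine, a heparin-binding growth factor of the embryo, went from 612 and 354 to 21.8 and 24.9 CPM (log2 fold change -4.36, SE 0.53, edgeR adjusted p 0.00581). CRABP2, which delivers retinoic acid to its nuclear receptor, was at 34.3 and 28.6 CPM at 65 days and had 0 counts in both term libraries. Set against 3 counts per library, it was at least 186-fold lower at term (edgeR adjusted p 0.00404). MEST (log2 fold change -2.20, adjusted p 0.0109), PTN (log2 fold change -2.70, adjusted p 0.0167), CRABP1 (log2 fold change -7.28, adjusted p 0.0192) and PLAGL1 (log2 fold change -1.66, adjusted p 0.0425) were the others that fell at 0.05. Of 34 genes of developmental signalling 1 was called lower at 0.01, and 1 rose and 7 fell at 0.05. The called gene was FGFR2, the epithelial receptor for mesenchymal FGF10, at 60.3 and 67.8 CPM and then 16.6 and 15.4 CPM (log2 fold change -1.99, edgeR adjusted p 0.00768). BMP4 (log2 fold change -3.86, adjusted p 0.0176), the retinoic acid synthase gene ALDH1A2 (log2 fold change -3.46, adjusted p 0.0150), the Wnt receptor gene FZD2 (log2 fold change -4.68, adjusted p 0.0167), NOTCH1 (log2 fold change -0.98, adjusted p 0.0187), NOTCH2 (log2 fold change -0.97, adjusted p 0.0401) and HES6 (log2 fold change -1.89, adjusted p 0.0367) also fell, and FGFR3 rose (log2 fold change 0.99, adjusted p 0.0357).

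Some markers of nerve fell. Of 12 Schwann cell markers 1 was called lower at 0.01 and 6 at 0.05, and of 13 neuron markers 2 and 5, and 0 were called higher in either list. In each list 3 members had a fitted fold change above 0, and in 1 of these Schwann cell markers and 2 of these neuron markers both term animals were above both 65-day animals. GAP43, a growth cone protein on both lists, went from 44.1 and 34.8 to 6.91 and 7.16 CPM (log2 fold change -2.48, SE 0.30, edgeR adjusted p 0.00581). NEFL, the light neurofilament chain, went from 4.76 and 5.07 CPM to 0 counts in both term libraries, at least 29.1-fold lower (edgeR adjusted p 0.00684). PRPH, UCHL1 and STMN2 of neurons and NGFR, FABP7 and FOXD3 of Schwann cells also fell, with log2 fold changes from -4.02 (NGFR) to -1.47 (UCHL1).

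In all, 7 called genes had 0 counts in both term libraries, and 0 called genes had 0 counts in both 65-day libraries. Among all tested genes 1817 were at 0 in both term libraries and 33 in both 65-day libraries. Genes with at least 1 count numbered 18763 and 20561 at 65 days against 16486 and 15345 at term. These numbers are not adjusted for depth. A count was worth 0.0323 and 0.0805 CPM at term against 0.0124 and 0.0101 at 65 days, so a gene of low abundance was more easily missed at term. Among the 7 called genes at 0 counts at term, beside CRABP2 and NEFL, were NKAIN1, a partner of the sodium pump, at 11.1 and 8.91 CPM at 65 days and at least 59.1-fold lower at term, the orexin receptor gene HCRTR1 (at least 14.9-fold lower) and C11H17orf97 (at least 13.8-fold lower).

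Among all called genes, the 10 named genes of lowest p that rose were ITPKA, C6H4orf32, IFI30, LGALS3, MCOLN2, B4GALNT2, CASP9, MCEE, MMP11 and SLC43A1. ITPKA, a kinase of inositol trisphosphate (chromosome 7, 33922227 to 33929689), went from 3.998 and 3.73 to 65.1 and 61.6 CPM (log2 fold change 4.05, SE 0.33, edgeR adjusted p 0.00207). LGALS3, galectin 3, went from 11.1 and 11.3 to 96.6 and 157 CPM (log2 fold change 3.52, edgeR adjusted p 0.00404). B4GALNT2, a glycosyltransferase that caps sugar chains, went from 0.495 and 0.867 to 66.04 and 50.3 CPM (log2 fold change 6.42, edgeR adjusted p 0.00505). Members of the lysosome were among them: IFI30, a thiol reductase, had a log2 fold change of 3.11 (edgeR adjusted p 0.00404) and the channel gene MCOLN2 one of 3.77 (edgeR adjusted p 0.00404). MMP11, a secreted metalloproteinase, was at 47.1 and 35.03 and then 198 and 159 CPM, a rise against the fall of most matrix genes (log2 fold change 2.13, edgeR adjusted p 0.00581). The loci LOC101116336 (3.91 and 4.03 to 463 and 320.1 CPM) and LOC101114959 (7.54 and 8.38 to 234 and 141 CPM) rose as well and carry no gene name in the tables used here. Of the 10 of lowest p that fell, FBN3, COL9A3, FANCD2, AURKB, NES, CRABP2 and NKAIN1 are given above. AIF1L, an actin-bundling protein, went from 51.1 and 58.8 to 9.78 and 10.4 CPM (log2 fold change -2.43, edgeR adjusted p 0.00320). DZIP1, a protein of the ciliary base, went from 43.6 and 42.04 to 6.68 and 6.84 CPM (log2 fold change -2.65, edgeR adjusted p 0.00404). PTK7, a planar cell polarity receptor, went from 115 and 99.4 to 24.5 and 26.5 CPM (log2 fold change -2.06, edgeR adjusted p 0.00404). The ages were apart in all 3.

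Stress and injury genes were called singly rather than as groups. CASP9, the caspase that starts mitochondrial apoptosis (chromosome 12, 49990944 to 50029451), was at 16.7 and 16.0 CPM at 65 days, 16.6 and 16.5 at 80, 16.7 and 10.02 at 100, 17.8 and 30.1 at 120 and 119.9 and 107 at term. Only the term animals lay clearly above the rest (log2 fold change 2.81, SE 0.32, edgeR adjusted p 0.00526). Among the 22 apoptosis genes CASP9 was the only one that rose at an adjusted p of 0.05, while 9 had a fitted fold change above 0. TNFRSF1A (log2 fold change -1.54, adjusted p 0.0322) and APAF1 (log2 fold change -1.02, adjusted p 0.0339), the adaptor on which CASP9 is activated, fell at 0.05. HSPA6, an inducible heat shock protein, went from 0.607 and 1.04 to 27.5 and 34.05 CPM (log2 fold change 5.24, SE 0.70, edgeR adjusted p 0.00684), and was already above 65 days in all 4 animals of 80 and 100 days. It and HSPA1A were the 2 of 21 heat shock genes that rose at 0.05. CCL26, an eosinophil-attracting chemokine, went from 18.03 and 4.26 CPM to 366 and 491 CPM (log2 fold change 5.28, SE 0.76, edgeR adjusted p 0.00774). Of 19 inflammation genes it was the only one that rose at 0.05, while 8 had a fitted fold change above 0. PTX3 fell at 0.05 (log2 fold change -4.93, adjusted p 0.0443). Of 28 immediate early genes 3 rose and 0 fell at 0.05 (NR4A1, IER3 and FOSL2), and of 29 interferon and antigen presentation genes 0 rose and 2 fell (IFIT5 and CXCL11). Of 29 hypoxia and glycolysis genes 3 rose and 2 fell at 0.05. Their median was 0.736, 0.916 above all genes, and -0.783 with library totals. The summed CPM of this list was 1370 and 1360 at 65 days, 1030 in term animal 1 and 3920 in term animal 2. BNIP3, a mitophagy receptor induced by low oxygen, was at 50.5 and 43.6 CPM at 65 days and at 74.7 and 512 at term, with only term animal 2 far from the rest, and the part of that animal's tissue state in the result was not tested.

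Few markers of the other cells that a pancreas sample can hold passed the test. Of 15 lymphoid genes 0 passed an adjusted p of 0.05 in either direction, of 15 myeloid genes 1 fell (LYZ), of 15 endothelial genes 1 fell (CDH5), and of 12 adipocyte, 7 enterocyte and 6 mesothelium genes 0 passed. Of 12 erythroid markers 2 fell, ALAS2 and HBM. The summed CPM of the erythroid list was 13.3 in 65-day animal 1, 316 in 65-day animal 2, and 21.3 and 12.9 at term, so that a lower sum at term was set mainly against a single animal. Single genes could differ: ALAS2 was at 5.68 and 72.6 CPM at 65 days and 0 and 0.242 at term. Both term animals were below both 65-day animals in 8 of the 12 markers and above them in 0. Among all tested genes these shares were 38.8% and 24.7%. Hepatocyte genes summed to 2540 and 7630 CPM at 65 days and to 11500 and 7880 at term, and 1 of 16 rose (VTN, vitronectin). Most members did not follow the sum: 5 had a fitted fold change above 0 and 11 below it, with a median of -1.12. FGB, a fibrinogen chain of hepatocytes, was at 6.31 and 225 CPM at 65 days and APOA2, an apolipoprotein, at 0.111 and 196, in both cases high in animal 2 alone, and their part in other results was not tested.

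A further list held 21 tested genes that the text of the study names for the ages in CFTR-/- animals. Of these 2 rose and 5 fell at 0.01, and 5 rose and 10 fell at 0.05. Since they were chosen on these samples, this count is not independent evidence of their direction. Beside those given above, NOV, a matricellular protein (log2 fold change -3.84, edgeR adjusted p 0.0238), FN1, fibronectin (log2 fold change -3.40, adjusted p 0.0198), FBLN2, fibulin 2 (log2 fold change -2.04, adjusted p 0.0167), COL5A3 (log2 fold change -1.51, adjusted p 0.0245) and HMOX1, heme oxygenase 1 (log2 fold change -2.05, adjusted p 0.0302), fell, and SCG5, a chaperone of hormone granules (log2 fold change 1.51, adjusted p 0.0209), rose. DDIT4 (log2 fold change 2.52, adjusted p 0.0697), FGA (log2 fold change -5.99, adjusted p 0.0543), FGB (log2 fold change -3.15, adjusted p 0.102), PLG (adjusted p 0.0809), GIP (log2 fold change -1.47, adjusted p 0.350) and FFAR3 (log2 fold change 0.71, adjusted p 0.363) did not pass.

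Among the called genes most changes were built up in steps, unlike among all tested genes that passed the fold. For each gene the part of the log2 change from 65 days to term already present at 80, 100 and 120 days was computed from the fitted values. Over the 183 genes its median was 22.8% at 80 days, 31.5% at 100 days and 54.2% at 120 days, and for the genes that rose it ran ahead of that for the genes that fell, at 61.4% against 48.9% at 120 days. The age means were in order in 115 of the 183 genes (62.8%), against 13.2% of the 11642 tested genes that passed the fold alone. A change was called early where at least 75% was in place at 80 days, late where at most 25% was in place at 120 days, and stepwise where the means were in order and it was neither. By these limits 113 of the 183 genes were stepwise, 6 late and 0 early, with 64 in none of these. That is 61.7% stepwise, 3.3% late and 0% early, against 12.8%, 26.2% and 10.4% of the 11642 genes past the fold. Without the library that stood apart at 100 days 132 of the 183 were stepwise and 6 late. Both term animals lay outside the range of all 8 earlier animals in 174 of the 183 genes (95.1%), against 31.0% of the 11642. Since the rule that calls a gene uses the spread within ages, these shares describe the called genes and carry no test.

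**Figure D4:**
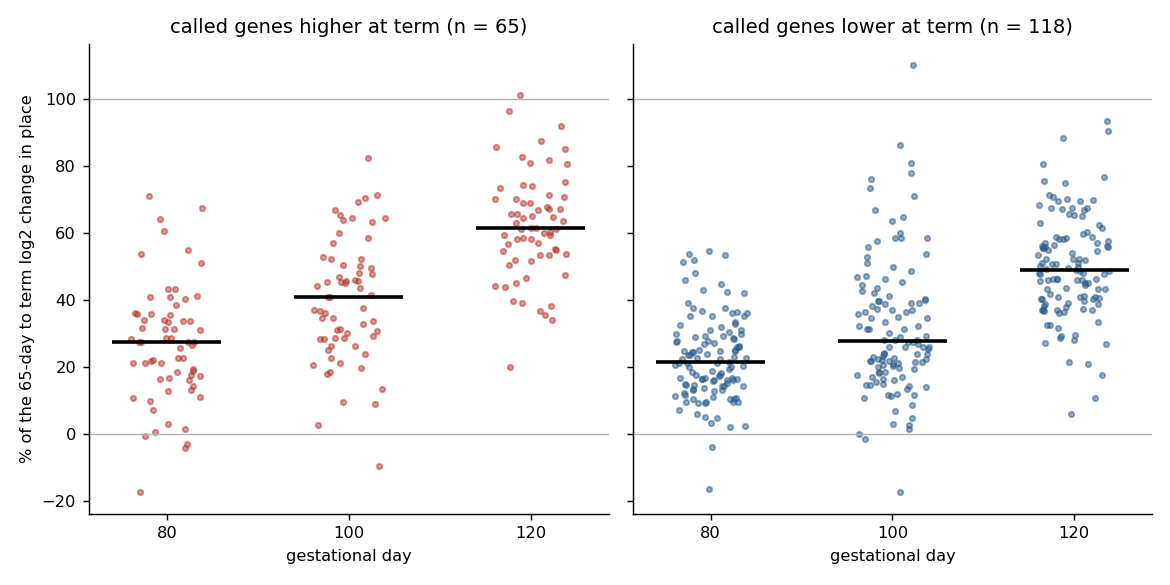
Each point is a called gene, placed by gestational day (80, 100 or 120) and by the percentage of its log2 change from 65 days to term that was in place on that day, with 65 genes that were higher at term on the left and 118 that were lower on the right, points spread sideways for legibility and bars at the medians. The medians climb from 27.5% to 61.4% for higher genes and from 21.4% to 48.9% for lower genes, and values below 0% are genes that first moved the other way.

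The late genes were CASP9, which rose, and KIF4A, TROAP, NEFL, HCRTR1 and C11H17orf97, which fell. NEFL, HCRTR1 and C11H17orf97 had 0 counts in both term libraries. Their fitted term values, and so their place among the late genes, depend on the prior count of 2 used in the fit. KIF4A, a motor of chromosome condensation (chromosome X, 59731954 to 59864130), was at 16.1 and 17.3 CPM at 65 days, 14.1 and 12.1 at 80, 11.5 and 10.9 at 100, 12.1 and 9.61 at 120 and 1.97 and 2.74 at term, with the term animals alone set apart (log2 fold change -2.83, SE 0.34, edgeR adjusted p 0.00581). At the other end were COL11A1, a minor fibrillar collagen, at 28.2 and 31.2 CPM at 65 days, 7.13 and 9.697 at 80 and 2.91 and 3.88 at 120, with 54.8% of its change in place at 80 and 93.6% at 120 days. COL12A1 (88.3%) and the protease gene ADAMTS7 (90.5%) were likewise nearly complete at 120 days. KCNE3, a potassium channel subunit, had 71.2% of its rise in place at 80 days, the highest share among the called genes. CCL26 was at 28.3 and 15.96 CPM at 80 days, 169.8 and 63.4 at 100 and 409.5 and 486 at 120, where the values overlapped those of term.

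Neither part of the interval had called genes of its own at 0.01. Between 65 and 120 days 0 genes (0.0%) were called by edgeR, with 2321 at an unadjusted p under 0.05, and DESeq2's Wald test called 355. Without the library that stood apart the edgeR count was 77. At an adjusted p of 0.05 the count was 6 (0.032%), with 4 higher (0.0213%) and 2 lower (0.0107%). They were FBN3 (log2 fold change -3.69, edgeR adjusted p 0.0157), COL9A3 (log2 fold change -2.60, adjusted p 0.0265), IFI30 (log2 fold change 2.54, adjusted p 0.0481) and the loci LOC101116336, LOC101114959 and LOC100191064, the last with 0 counts and 1 count at 65 days. Between 120 days and term edgeR also found 0 genes past 0.01 (0.0%), with 1828 under 0.05 before adjustment, and the Wald test called 135. Side by side, the acinar list had a median log2 fold change of 3.07 from 65 to 120 days and of 1.43 from 120 days to term, the matrix list -1.34 and -0.817, the mitosis list -0.992 and -0.848, and DNA replication -0.480 and -1.03. The unfolded protein response had 1.30 and 0.0628. These pairs share the 120-day animals. A straight trend with gestational day over the 10 libraries was called for 877 genes (4.68%), with 491 rising (2.62%) and 386 falling (2.06%), and at 0.05 for 2684 (14.3%), 1365 rising (7.29%) and 1319 falling (7.04%). The count at 0.01 was 58 without term animal 1 and 256 without term animal 2, 271 and 277 without a 65-day animal, and 2166 without 100-day animal 2.

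In WT animals the same ages gave 381 called genes of 18714 (2.04%), of which 208 rose (1.11%) and 173 fell (0.924%), and at 0.05 2021 genes (10.8%), with 1034 higher (5.53%) and 987 lower (5.27%). This fit kept WT animal 2 of 120 days, which the study names as an outlier. The count at 0.01 was 0 without either 65-day animal, 162 without term animal 1, 143 without term animal 2 and 0 with the replicate block. Of the 183 genes called in CFTR-/- animals 41 were also called in WT, all in the same direction, or 22.4% of the 183 and 10.8% of the 381. The fold change in WT had the opposite sign in 18 of 182 genes. The share of opposite signs over all tested genes was not counted, so these counts describe the called genes only. FBN3 passed 0.05 but not 0.01 in WT, at 51.8 and 39.8 CPM in WT at 65 days and 5.42 and 1.31 at term (log2 fold change -3.77, edgeR adjusted p 0.0115), and CASP9 (log2 fold change 3.73, edgeR adjusted p 0.00740) and UBE2C (log2 fold change -1.83, adjusted p 0.00814) were among the 41. The acinar list had a median of 3.59 in WT and 4.52 in CFTR-/- animals, and 0 of its members passed the test of the difference. For the matrix list the medians were -1.05 and -2.09, with 1 member lower by that test, and for mitosis -0.840 and -1.96, with 3 members lower. Summed matrix CPM was 22200 and 24000 in 65-day CFTR-/- animals against 11700 and 13400 in WT. By term the genotypes overlapped, with 4400 and 4820 against 5220 and 2480 in WT. Mitosis sums of term were lower in CFTR-/- animals (276 and 193 against 658 and 302). Stellate sums were higher in CFTR-/- animals at both ages. They were 3750 and 2920 at 65 days against 1700 and 1890 in WT. Those of term were 1160 and 1910 against 592 and 464. The sums were not tested between genotypes.

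**Figure D5:**
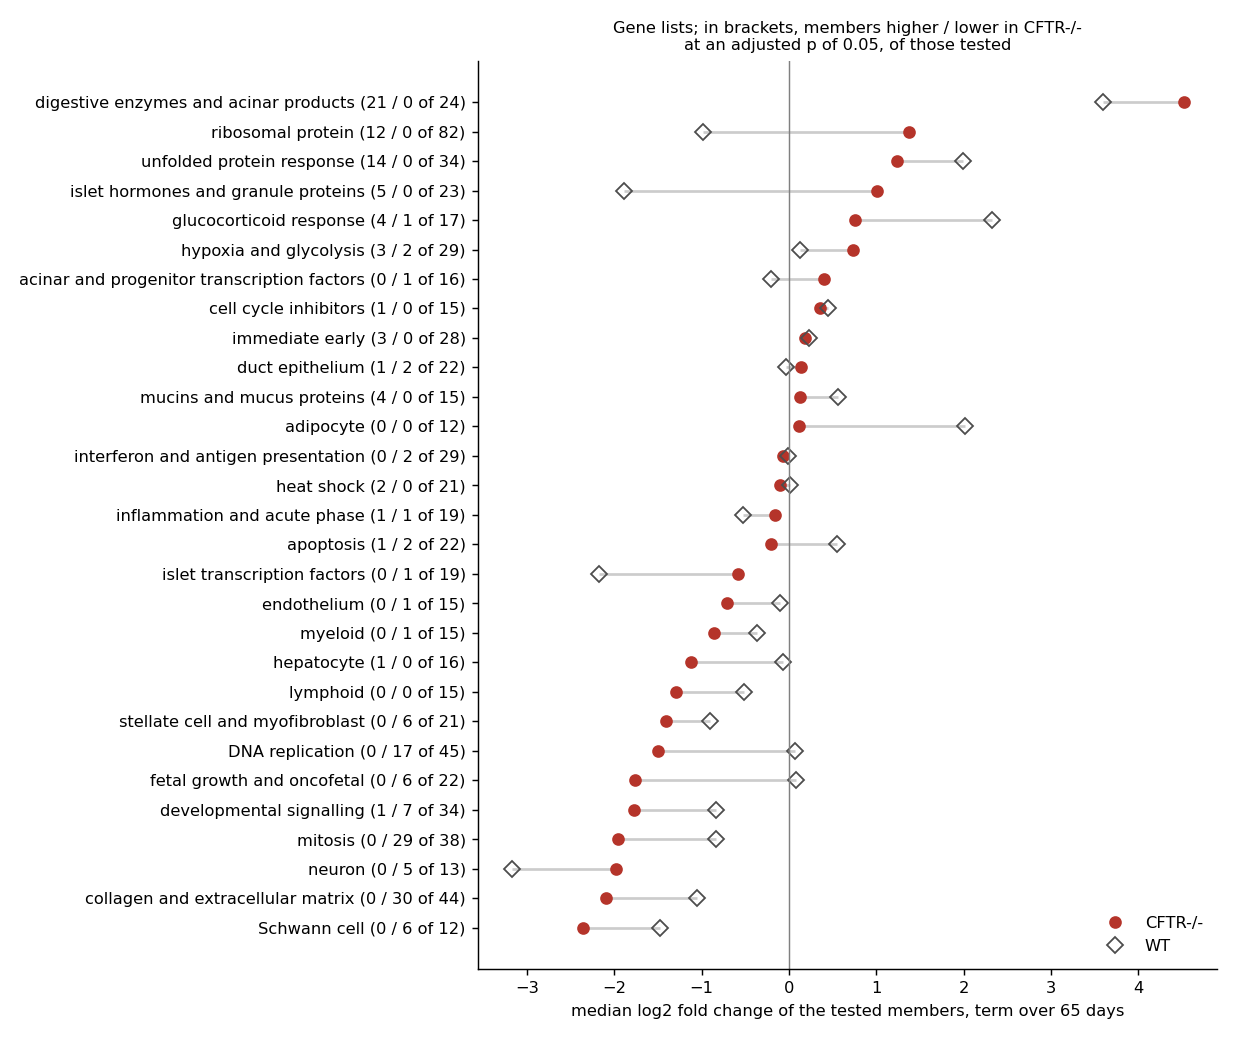
Median log2 fold change of term over 65 days of the tested members of each gene list drawn, in CFTR-/- (filled circles) and WT (open diamonds) animals, with a grey line joining the pair and the numbers of members higher and lower in CFTR-/- animals at an adjusted p of 0.05 beside each name. Not drawn are the mesothelium, enterocyte and study-named lists and the erythroid list, whose median was -10.3 in CFTR-/- and -2.4 in WT. Digestive enzymes lie farthest right in both genotypes, ribosomal protein and islet hormone genes lie right of 0 in CFTR-/- (1.37 and 1.01) and left of it in WT (-0.979 and -1.89), and with library totals the CFTR-/- medians of ribosomal, islet, unfolded protein, hypoxia and glucocorticoid genes are below 0.

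The difference between the genotypes in the change from 65 days to term was tested as an interaction over all 20 libraries. It was called for 1 of 19522 genes at 0.01 (0.00512%), EXTL3, and for 466 at 0.05 (2.39%), 239 more positive in CFTR-/- (1.22%) and 227 more negative (1.16%), with 4781 at an unadjusted p under 0.05. The study names CFTR-/- animal 2 of 100 days and WT animal 2 of 120 days as outliers. Both were kept in this fit, and no fit without them was run, so the small count does not show that the genotypes changed alike. The count at 0.01 was 0 without any of the 4 animals of 65 days, 3 without WT term animal 1, 27 without WT term animal 2, 252 without CFTR-/- term animal 1, 1 without CFTR-/- term animal 2 and 1266 by DESeq2's Wald test. EXTL3 was among the genes called without WT term animal 2 and without CFTR-/- term animal 1, and not in the other 6 of these 8 fits. At 0.05 the DNA replication list had 7 members that were more negative in CFTR-/- animals and 0 that were more positive. FANCD2 was at 18.1 and 17.6 CPM in WT at 65 days and 12.9 and 7.25 at term, against the fall to 2.39 and 2.495 CPM in CFTR-/- animals (difference of log2 fold changes -2.37, SE 0.40, edgeR adjusted p 0.0234). UHRF1 (difference -2.91, adjusted p 0.0429), MCM3 (difference -2.58, adjusted p 0.0335), MCM6 (difference -2.47, adjusted p 0.0319), MCM10 (difference -1.93, adjusted p 0.0411), CHAF1A (difference -1.85, adjusted p 0.0332) and CHAF1B (difference -2.21, adjusted p 0.0426) made up the rest. The median of the whole list was -1.50 in CFTR-/- and 0.0669 in WT animals.

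The islet granule list went the other way, with 6 members more positive in CFTR-/- animals and 0 more negative. SST was at 1108 and 1171 CPM in WT at 65 days and 232 and 383 at term, lower with age, against the higher term values in CFTR-/- animals (difference 4.33, SE 0.96, edgeR adjusted p 0.0383). The others were SCG5 (difference 3.26, adjusted p 0.0365), SCG3 (difference 3.06, adjusted p 0.0383), CHGB (difference 3.90, adjusted p 0.0383), PCSK1N (difference 3.69, adjusted p 0.0378) and KCNK16 (difference 4.56, adjusted p 0.0245). Ribosomal protein genes had 3 members that were more positive. THBS1, thrombospondin 1, was at 33.8 and 60.4 CPM in CFTR-/- animals at 65 days and 3.68 and 1.37 at term, but at 7.45 and 11.3 and 49.9 and 12.96 in WT (difference -5.92, SE 1.10, edgeR adjusted p 0.0245). HSPA6 was at 25.6 and 22.0 CPM in WT at 65 days and 1.25 and 6.57 at term, the reverse of its course in CFTR-/- animals (difference 7.82, SE 1.04, edgeR adjusted p 0.0213). NAPRT, an enzyme of NAD synthesis, went from 27.9 and 32.7 to 157 and 219 CPM in CFTR-/- animals, with a log2 fold change of 2.65 there and -0.51 in WT (difference 3.14, edgeR adjusted p 0.0234). By the smallest p of this test, CALU, a calcium-binding protein of the secretory pathway (difference -2.82, edgeR adjusted p 0.0234), SMIM18 (difference 3.81, adjusted p 0.0234) and FAM168A, with 0 counts in both term CFTR-/- libraries, stood beside EXTL3.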

How the data were processed

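RNA was isolated with TRIzol from snap-frozen pancreas, and libraries primed with oligo dT were sequenced as paired-end reads. Per the labels and the methods of the study, the authors aligned reads with STAR (version 2.6 in the submitters' processing notes) to Oar_v4.0 and assigned them to genes with featureCounts (1.6.3). The deposited values are raw counts per gene, with the strand setting not given in the sources used here, so that reads of overlapping or antisense genes may be mixed. Columns with the authors' own comparisons were not used. The CFTR-/- table was fitted in edgeR 4.0.16 (R 4.3.3): filterByExpr by group (minimum count 10, minimum total 15) kept 18737 genes, factors were TMM, and all 10 libraries shared the spread. SE is the absolute log2 fold change over the square root of F. WT ages used the WT table, and the interaction all 20 libraries. CPM are on the TMM scale of all 20 libraries, as given for both animals. With 2 animals a group no exact permutation test can go below p = 0.333 (two-sided), so the tests rest on the spread shared across genes and libraries.

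In simulated counts with 200 changed genes, the comparison of term with 65 days recovered 19.5% of them, with 0% of 2-fold, 19.4% of 4-fold and 39.4% of 8-fold changes, and called 1 unchanged gene. The same replicate numbers in CFTR-/- groups did not pair the animals (correlation of deviations -0.0782 between animals 1 of both ages). Alternatives were DESeq2 1.42.0 size factors and its Wald test, other thresholds and tests, no filter, a replicate block, other sets of libraries, a length correction (loess, span 0.3) and, added after seeing the data, library totals. Named genes are CFTR, the called or lowest-p members of the lists, the 10 called genes of lowest p in each direction, those with the largest early or late part, those of lowest p in the interaction and those named by the study. Other genes named are members of the lists or, in the closing section, chosen after their values were seen. The genes and lists were chosen with earlier results of these data known. Names of some loci come from the RefSeq gene table. List members with no matching name in the table were not analysed here. Some members of the Schwann cell list are counted but not reported here by name. No sequences were used.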

Additional observations from a re-analysis of the deposited data

Results flagged for a closer look

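EXTL3, a glycosyltransferase of heparan sulfate synthesis (chromosome 2, 101984150 to 102043963), drew attention because its change from 65 days to term differed between the genotypes. In CFTR-/- animals its CPM was 27.1 and 28.1 at 65 days and 13.4 and 10.5 at term, and in WT animals 18.9 and 16.2 and then 95.1 and 61.6. Both CFTR-/- animals of term were below those of 65 days and both WT animals above them. The difference of the log2 fold changes was -3.36 (SE 0.39, edgeR quasi-likelihood test, Benjamini-Hochberg adjusted p 0.009), and it was the only one of 19522 genes called in that test, while DESeq2 size factors gave 0 called genes and the Wald test 1266. EXTL3 was no longer called in 6 of the 8 fits with 1 animal left out (each animal of 65 days, WT term animal 1 and CFTR-/- term animal 2) and with the replicate block. Loss of CFTR and cloning cannot be told apart here.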

How the results depend on the processing

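Direction was kept by CFTR and by each of the 62 named called genes under every alternative run. Genes called at term against 65 days numbered 183. An adjusted p of 0.05 gave 2185, an unadjusted p of 0.01 2801, the DESeq2 Wald test 2698, no filter 1022, the replicate block 357, only the 4 libraries compared 88 (35 of them among the 183), all 20 libraries 994, glmTreat against a fold of 1.5 27, the likelihood ratio test 2215 and library totals 7023. Leaving out 1 animal gave 0 to 1524. The replicate block kept 61 of the 62 named called genes. For 120 against 65 days, with 0 genes called, the same changes gave 6 (adjusted p of 0.05), 737 (unadjusted), 355 (Wald), 23 (no filter), 3 (replicate block) and 0 to 77 (an animal left out). For term against 120 days, with 0 called, they gave 488 (unadjusted), 135 (Wald) and 0 to 1 (an animal left out). For the trend, with 877, they gave 2684 (adjusted p of 0.05), 3057 (unadjusted), 2685 (Wald) and 58 to 2166 (an animal left out). For WT, with 381, they gave 2021 (adjusted p of 0.05), 2703 (unadjusted), 2799 (Wald), 648 (no filter), 0 (replicate block) and 0 to 162 (an animal left out). For the interaction, with 1, they gave 466 (adjusted p of 0.05), 1991 (unadjusted), 0 (DESeq2 size factors), 1266 (Wald), 2 (no filter), 0 (replicate block) and 0 to 252 (an animal left out). Limits of 0.67 and 0.33 gave 2 early and 15 late genes, against 0 and 6, and leaving out an animal 0 to 1 early and 6 to 10 late. CFTR, at -1.64, crossed the threshold at an adjusted p of 0.05 or an unadjusted p of 0.01 and in the likelihood ratio test (each -1.64), without a filter (-1.65), by the Wald test (-1.62) and with library totals (-3.17). The cause of these differences was not tested, beyond the fewer samples or the looser threshold that an alternative has by construction.

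With 2 animals an age and 23171353 counts in the shallowest library, 0% of the simulated 2-fold changes were called by the main rule. The simulation held 200 changed genes, so this share need not hold for the measured counts or for looser thresholds. A gene that was not called is not shown to be unchanged. The calls rest on all 4 animals: without term animal 2, 0 of the 62 named called genes passed.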

Other observations

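Further genes of the secretory pathway were among the 183, chosen here after their values were seen. With library totals the median of all genes was -1.71 against -0.18, and the direction of these genes in that fit is not reported here. SEC11C, a subunit of the signal peptidase, was at 32.2 and 25.8 CPM at 65 days and later, at term, at 414 and 314 CPM (log2 fold change 3.66, edgeR quasi-likelihood adjusted p 0.00684). TMED3, a cargo receptor between the endoplasmic reticulum and the Golgi, went from 110.9 and 75.5 to 445 and 431 CPM (log2 fold change 2.25, edgeR adjusted p 0.00657). SIL1, which recharges the chaperone BiP, had a log2 fold change of 1.78 (edgeR adjusted p 0.00774), and GNPTAB, which tags enzymes for the lysosome, one of 1.54 (edgeR adjusted p 0.00711). CLDN2, a tight junction protein of leaky epithelia, went from 1.88 and 2.40 to 184 and 73.2 CPM (log2 fold change 5.92, edgeR adjusted p 0.00774), and ANPEP, an apical aminopeptidase, from 113.6 and 91.0 to 695 and 805 CPM (log2 fold change 2.89, edgeR adjusted p 0.00797). The ages did not overlap in any of these genes.

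Cytoskeletal genes were among those that fell. TUBB, a beta tubulin, went from 806 and 695 CPM to 152 and 183 CPM (log2 fold change -2.15, edgeR adjusted p 0.00908), whereas its fold change in WT was 0.28 (edgeR adjusted p 0.607). The difference between the genotypes had an adjusted p of 0.0247. MYH10, a nonmuscle myosin, went from 159.9 and 183 to 37.8 and 36.9 CPM (log2 fold change -2.19, edgeR adjusted p 0.00581), PALLD, which bundles actin, from 43.6 and 45.6 to 8.10 and 8.61 CPM (log2 fold change -2.40, edgeR adjusted p 0.00581), and DBN1, drebrin, from 192 and 159.6 to 22.3 and 7.41 CPM (log2 fold change -3.54, edgeR adjusted p 0.00684).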
